A study of Mus musculus with 9 samples.

Results

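Metastases were compared with primary tumours over 2 mouse tumour models at once: 5 metastasis libraries against 4 primary libraries, which are all 9 libraries of the study. The members were chosen by site alone, and the model, breast cancer (BC) or pancreatic ductal adenocarcinoma (PDAC), entered as a covariate. Of the 23799 genes in the table, the 12832 with at least 1 RPKM (reads per kilobase of gene length, adjusted for the reads of each library) in at least 2 libraries were tested. The BC libraries held GFP-sorted cells of tumours labelled as derived from 4T1-eGFP, a labelled line of mouse mammary carcinoma, taken at 28 days: primary tumours 1 and 5 and lung metastases 4 and 6. The PDAC libraries held YFP-sorted cells of mice labelled p48-Cre/p53F/+KrasL/+/ROSA-LSL-YFP: primary tumours 1 and 5, liver metastases 1 and 5 and lung metastasis 1. The label of every PDAC number 1 library adds SIRT6F/F, and its time is 25.67 weeks against 28.95 weeks for number 5, so the SIRT6 alleles, the time and the mouse cannot be told apart. The p48-Cre driver acts in the pancreas, where it switches on the YFP reporter together with the altered alleles, and all BC tumours go back to 1 cell line. The growth protocol calls both models orthotopic. The PDAC libraries of 1 number were taken as 1 mouse, so primary 1, liver metastasis 1 and lung metastasis 1 share a mouse. Primary 5 and liver metastasis 5 share another. The joint fit counts them as separate libraries, and a fit with these numbers as pairs is given below. The labels do not say that the BC libraries of a group came from separate mice, so the p-values reflect only how far these libraries differ among themselves, which may be partly technical.

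A metastasis grows from cells that left the primary tumour, entered blood or lymph and settled in another organ. Tumour cells at such sites often carry the epithelial genes of the tissue of origin, and the neighbouring cells are those of the host organ and of blood: neutrophils, macrophages, platelets and red cells, with hepatocytes in liver and surfactant-producing epithelium in lung. Neutrophils carry large amounts of mRNA for secreted alarmins and protease inhibitors, and acute-phase proteins are made by liver, epithelium and myeloid cells in inflammation.

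Few genes passed a test over both models. Wfdc17, listed in the table as Gm11428 (ENSMUSG00000069792), encodes a small secreted protein with a whey acidic protein domain, the fold of a family of protease inhibitors, and it rose in metastases over both models. It was the only gene called by limma at an adjusted p under 0.05 in the joint fit, which is 1 gene higher, or 0.00779% of those tested, and none lower, or 0%. At an unadjusted p under 0.05 the joint fit had 281 genes higher (2.19%) and 347 lower (2.7%). These counts were 112 and 1121 when each library was rescaled to an equal sum, 141 and 747 when haemoglobin genes were left out of that sum, and 361 and 245 after quantile scaling. The median log2 difference of all genes tested was -0.16 as deposited and -0.61, -0.48 and -0.02 in these scalings, so every difference below is to be read against that shift.

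Within each model alone the limma fit called no gene higher or lower (0% in each direction; smallest adjusted p = 1 in BC and 0.266 in PDAC). At an unadjusted p under 0.05, BC had 122 genes higher (0.951%) and 154 lower (1.2%), and PDAC had 620 higher (4.83%) and 366 lower (2.85%). Both lists of higher genes shared 26 genes, which are 0.203% of all genes tested, 21.3% of the BC list and 4.19% of the PDAC list. No gene was on both lists of lower genes (0%). With the larger of the per-model p-values adjusted over all genes, 0 genes passed (0%; smallest adjusted p = 1). The 2 models share no library.

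Across all genes tested the differences of the models had a Pearson correlation of 0.06, given as a description, since genes are not independent. They were positive in both models for 2103 genes (16.4%) and negative in both for 3992 (31.1%). For 6491 genes (50.6%) the models differed in sign. A stricter description took genes whose metastasis libraries all lay on 1 side of the primaries of the same model, in both models, with a log2 difference of at least 1 in each. By this rule 96 genes (0.748%) lay higher and 139 (1.08%) lay lower, and 23 of the 26 genes named above were among the 96. Groups of so few libraries can lie apart without an effect of site. With no demand on size, 184 genes (1.43%) lay apart with BC higher and PDAC lower, and 222 (1.73%) the reverse. The counts of 96 and 139 thus do not by themselves show a shared effect. The split changed with the scaling, to 40 higher and 590 lower at an equal library sum, 53 and 403 without haemoglobin and 123 and 81 after quantile scaling. The genes nearest the threshold were Ttc39c (smaller of its per-model differences 0.97) and Itgb1bp1 (0.998) outside and Dynlt1b (1.002) and Gm7676 (1.005) inside among higher genes. Among lower genes, Senp3 (0.986) and Nudcd1 (0.994) were outside and Anapc4 (1.003) and Cul5 (1.01) inside.

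**Figure D1:**
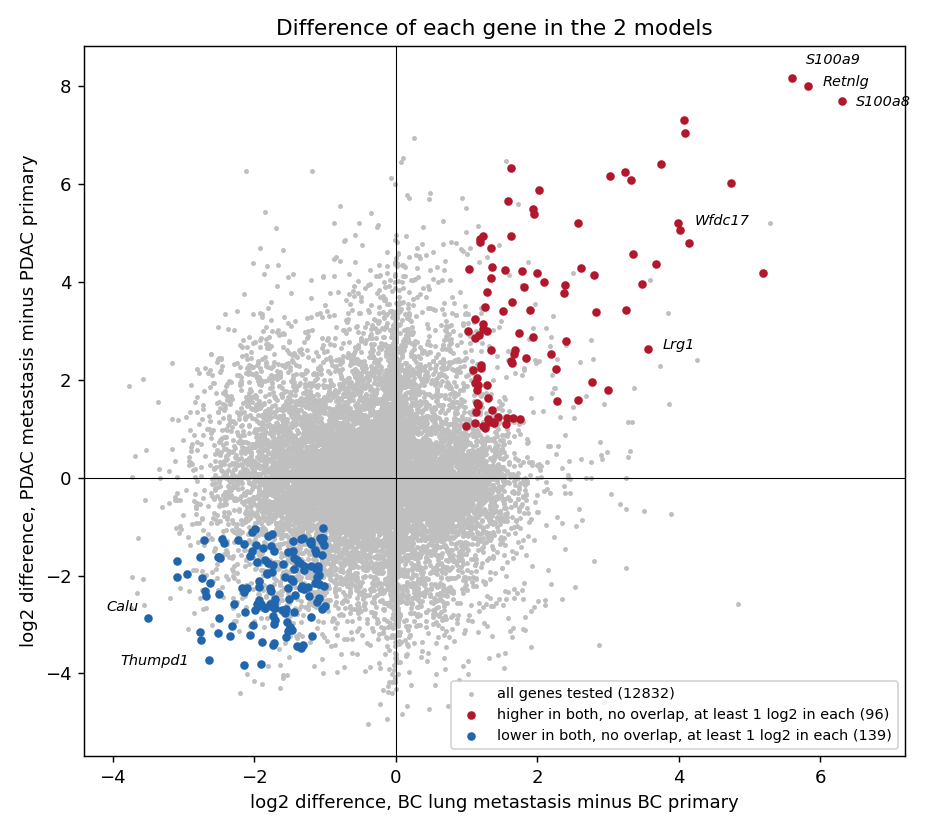
Log2 difference of each of the 12832 tested genes in BC (x axis, lung metastasis minus primary) and PDAC (y axis, metastasis minus primary), with the 96 genes that lay higher in both models in red and the 139 that lay lower in blue. The red points reach 6.30 in BC (S100a8) and 8.16 in PDAC (S100a9), farther from 0 than any blue point on the same axis.

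The summed RPKM of a library followed the site in both models. It was 377200 and 288200 in BC primaries 1 and 5, against 390800 and 546500 in BC lung metastases 4 and 6. PDAC primaries 1 and 5 had 557100 and 474800, against 920200, 992100 and 924900 in liver metastases 1 and 5 and the lung metastasis. At an equal library sum 39 of the 96 genes still lay higher by the same rule. The number of genes above 0 did not follow the site in both models. Between 9530 and 20478 genes were above 0, and BC lung metastasis 6, PDAC primary 5 and PDAC lung metastasis 1 had the fewest, at 10938, 10410 and 9530. Of the tested genes, 49.5%, 52.5% and 52.1% were under 1 RPKM there, against 16.6 to 36.7% in the other libraries. Estimated reads on genes ran from 21300000 in PDAC lung metastasis 1 to 128000000 in BC primary 5. These estimates are rough, since in most libraries they exceed the total reads implied by the scaling of the values. In PDAC liver metastasis 5 they were 65200000 against a total of 36400000. Without those 3 libraries, BC lung metastasis 4 was the only BC metastasis, PDAC primary 1 the only PDAC primary, and no PDAC lung metastasis was left. By the same rule 145 genes then lay higher in both models, 49 of them among the 96, and 76 lay lower, 19 of them among the 139. Smaller groups lie apart more easily, so these counts do not compare directly with 96 and 139. Every difference given without these 3 libraries rests on those groups. No gene was then called in the joint fit (220 higher and 86 lower at an unadjusted p under 0.05). Joint differences and list medians without these 3 libraries are given below for the genes and lists described with a joint difference or a median.

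The libraries are labelled as tumour cells, and markers of other cell types were measured in each. The 20 neutrophil genes summed to 314 and 425 RPKM in BC primaries and to 1922 and 3187 in BC lung metastases. In PDAC they summed to 2005 and 3348 RPKM in primaries and to 10784, 24126 and 233616 in metastases, the last in liver metastasis 5. These sums did not overlap in either model. They include S100a8, S100a9, Retnlg and Stfa2l1, which are described below as higher, so the sums are not separate from those results. With those 4 members left out, the sums of primaries and metastases overlapped in both models. Some defining neutrophil genes were listed at 0 in single metastases, such as Ly6g in BC lung metastasis 6 and PDAC lung metastasis 1. The 24 macrophage and monocyte genes ranged from 1023 to 1623 RPKM in BC primaries and from 3451 to 3955 in BC metastases. Cd74, a gene of MHC class II presentation, made up 2975 of the 3955 RPKM and 2704 of the 3451. Its part of the sums of BC primaries 1 and 5 was 262 and 488 RPKM. The list's median BC difference was -0.54, with 15 members negative in BC and 9 positive. The higher BC sums thus do not stand for the list as a whole. The PDAC range of the list was wide in primaries, at 2005 and 31915 RPKM, and the metastases lay between, at 23957 to 28505. Cd74 held 26231 of those 31915 RPKM. Csf1r and Mrc1 were listed at 0 in BC lung metastasis 6 and PDAC primary 5. The 18 epithelial genes summed to 3476 and 6158 RPKM in BC primaries and to 4850 and 6644 in BC metastases, so these sums were at like levels. Single members were not: 6 of the 18, Cdh1 (the gene of E-cadherin) among them, were listed at 0 in BC lung metastasis 6. No member was listed at 0 in the other BC libraries. Krt18 and Krt8 stood at 4066 and 1323 RPKM in BC lung metastasis 6. In PDAC the epithelial genes summed to 2415 and 19740 RPKM in primaries. Their sums were 7058, 387 and 229 in liver metastases 1 and 5 and the lung metastasis, and Cdh1 was listed at 0 in the last. In bulk libraries such as these, fewer cells of a type and less RNA per cell cannot be told apart. The part of these marker levels in the results below was not tested.

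**Figure D2:**
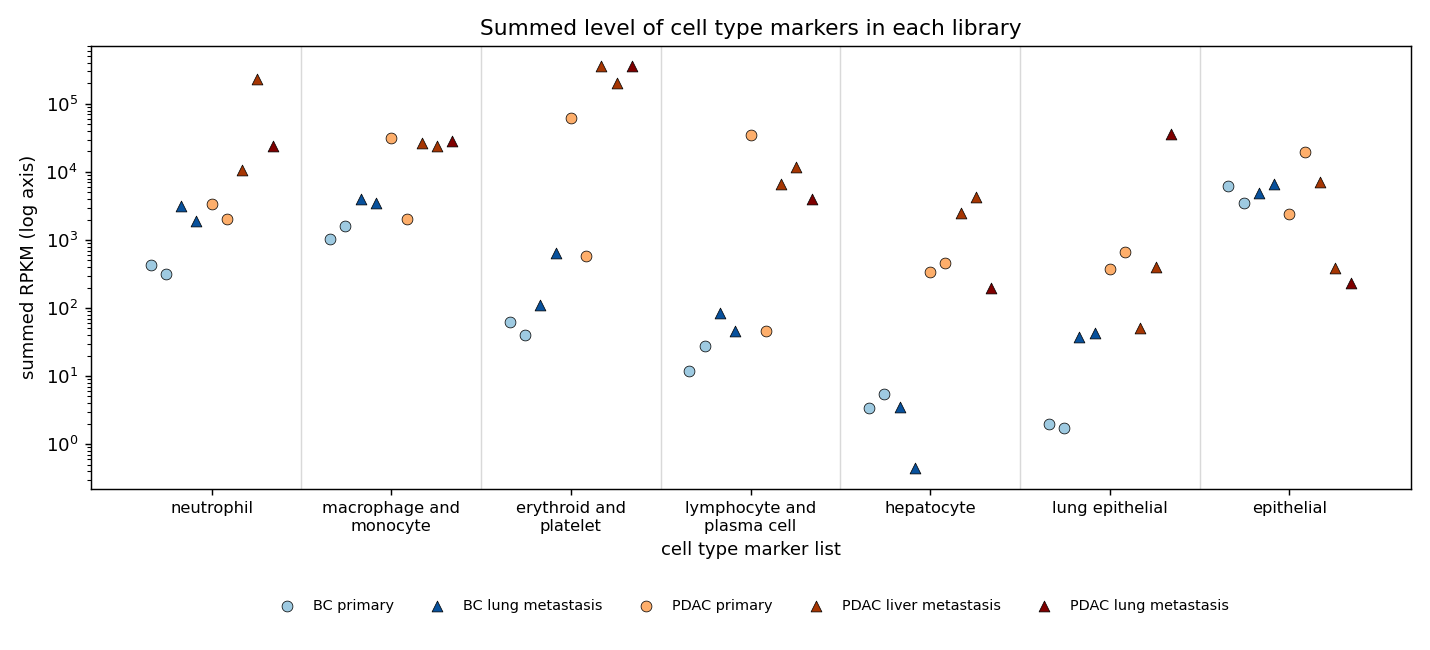
Summed RPKM of 7 lists of cell type markers (y axis, log scale) in each library, with circles for primaries and triangles for metastases. The neutrophil sum, which includes S100a8, S100a9, Retnlg and Stfa2l1, lies higher in all metastases than in the primaries of the same model. The epithelial sum is lowest in PDAC liver metastasis 5 and the PDAC lung metastasis, at 387 and 229 RPKM.

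Wfdc17 and Wfdc21, genes of the whey acidic protein family, and the neutrophil alarmins were among the genes with the lowest p-values or the largest differences. The family as a whole was not examined. Wfdc17 stood at 36.3 and 16.3 RPKM in the BC primary tumours against 457 and 370 in lung metastases 4 and 6. In PDAC it stood at 365 and 35.8 RPKM in primaries 1 and 5, at 3418 and 4581 RPKM in liver metastases 1 and 5 and at 3646 RPKM in lung metastasis 1. All metastases lay above all primaries of their own model, and PDAC primary 1 lay near the BC metastases. Its joint log2 difference was 4.58 ± 0.58 (SE, n = 5 against 4 libraries, not separate mice, limma adjusted p = 0.0371), with 4.02 ± 0.87 in BC and 5.05 ± 0.79 in PDAC. This call held in 7 of 21 alternatives; the adjusted p ranged from 0.0112 to 0.86, and without the 3 libraries with the fewest genes the difference was 3.80 (adjusted p = 0.507). With the PDAC numbers as pairs (a replicate block) the difference was 4.47 and the call was lost (adjusted p = 0.0877). It was also lost without BC primary 5 (0.134), BC lung metastasis 4 (0.121) or 6 (0.485), PDAC liver metastasis 1 (0.0663) or 5 (0.131) or the PDAC lung metastasis (0.149). The difference stayed between 3.75 and 5.17 in all 21.

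Wfdc21, a further gene of that family, listed as 1100001G20Rik and chosen after its values were seen, was at 0.742 and 0.703 RPKM in BC primaries, against 82.5 and 46.8 in BC metastases. Its PDAC values were 143 and 67.6 RPKM in primaries, against 510, 6839 and 1671 in liver metastases 1 and 5 and the lung metastasis. The groups did not overlap in either model, and the joint difference was 4.64 ± 0.68 (limma adjusted p = 0.051). Leaving out the 3 libraries with the fewest genes, it was 4.65 (adjusted p = 0.9998).

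S100a8 and S100a9 encode the 2 chains of calprotectin, a calcium- and zinc-binding alarmin that neutrophils release. S100a8 was at 14.97 and 13.2 RPKM in the BC primary tumours, against 1503 and 939 in lung metastases 4 and 6. In the PDAC libraries the values were 609 and 9.28 RPKM in primaries 1 and 5, against 5035 and 101301 RPKM in liver metastases 1 and 5 and 8507 in lung metastasis 1. Every metastasis lay above both primaries of its model, and PDAC liver metastasis 5 lay far above the rest. S100a9 had the same order, with 8.54 and 9.88 RPKM in BC primaries, against 588 and 411 in BC metastases, 323 and 2.39 in PDAC primaries and 2564, 37977 and 8664 in PDAC metastases. The joint differences were 7.06 ± 1.06 for S100a8 (limma adjusted p = 0.051) and 6.99 ± 1.13 for S100a9 (adjusted p = 0.079), the largest of the 96 genes with Retnlg. Retnlg encodes a resistin-like secreted protein of granulocytes and was at 1.98 and 1.18 RPKM in BC primaries, against 173 and 120 in BC metastases, 152 and 1.21 in PDAC primaries and 1064, 27830 and 3454 in PDAC metastases (7.01 ± 1.14; adjusted p = 0.079). Without the 3 libraries with the fewest genes these differences were 5.93, 5.39 and 5.62. S100a8 passed in 3 of 21 alternatives, and its limma adjusted p was up to 0.86 in the others. Its difference was 8.16 without PDAC primary 1, which leaves primary 5 alone in its group.

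The upstream 250 bases of 6 of the genes with shared differences are given because these genes lay higher together in metastases and their start regions can be compared. They are from RefSeq, in GRCm38.p6, which is a later build than the mm9 of the deposited values, and each is written 5′ to 3′ on the gene's own strand, ending at the base before the start. Capitals mark matches to a motif that was searched on both strands: the PU.1 core GAGGAA, the AP-1 site TGANTCA, the TATA box TATAAA and the GATA site AGATAA. A match on the opposite strand shows as the reverse complement, and Lrg1, described below, held no match.
Wfdc17, chr11:83703806-83704055, forward strand: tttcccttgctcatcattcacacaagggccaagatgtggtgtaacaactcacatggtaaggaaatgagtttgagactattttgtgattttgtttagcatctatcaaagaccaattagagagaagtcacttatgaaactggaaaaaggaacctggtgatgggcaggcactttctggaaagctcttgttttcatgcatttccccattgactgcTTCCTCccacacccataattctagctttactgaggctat
S100a8, chr3:90668821-90669070, forward strand: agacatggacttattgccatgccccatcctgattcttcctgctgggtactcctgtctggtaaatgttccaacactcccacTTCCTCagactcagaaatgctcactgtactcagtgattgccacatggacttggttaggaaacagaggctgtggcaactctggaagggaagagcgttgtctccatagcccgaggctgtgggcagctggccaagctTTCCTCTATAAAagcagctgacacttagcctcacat
S100a9, chr3:90695722-90695971, reverse strand: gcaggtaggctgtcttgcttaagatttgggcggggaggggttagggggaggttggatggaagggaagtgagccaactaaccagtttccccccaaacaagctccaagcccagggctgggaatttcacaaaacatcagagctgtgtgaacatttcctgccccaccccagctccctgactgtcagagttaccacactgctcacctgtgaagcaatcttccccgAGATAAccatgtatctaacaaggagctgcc
Lrg1, chr17:56121947-56122196, reverse strand: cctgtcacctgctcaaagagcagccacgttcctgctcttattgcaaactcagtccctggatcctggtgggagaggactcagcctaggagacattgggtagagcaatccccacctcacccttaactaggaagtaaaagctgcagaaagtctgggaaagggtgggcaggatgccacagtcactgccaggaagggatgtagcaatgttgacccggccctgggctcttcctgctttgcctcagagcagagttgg
Ifitm3, chr7:141010745-141010994, reverse strand: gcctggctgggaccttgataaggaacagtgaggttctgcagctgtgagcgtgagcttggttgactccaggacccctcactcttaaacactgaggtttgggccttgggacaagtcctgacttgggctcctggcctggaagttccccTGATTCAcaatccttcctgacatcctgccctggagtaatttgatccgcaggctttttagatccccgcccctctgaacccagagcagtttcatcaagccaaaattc
Ifitm6, chr7:141016893-141017142, reverse strand: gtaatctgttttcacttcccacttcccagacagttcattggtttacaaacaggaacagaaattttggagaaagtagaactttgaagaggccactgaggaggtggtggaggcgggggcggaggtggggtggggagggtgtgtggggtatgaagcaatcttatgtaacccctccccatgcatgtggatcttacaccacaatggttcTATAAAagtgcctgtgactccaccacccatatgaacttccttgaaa

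The PU.1 core, bound by a factor of myeloid cells, lay on the opposite strand at position -39 from the start of Wfdc17 and at positions -170 and -36 from the start of S100a8, where the second match overlaps no other motif but directly precedes a TATA box at -30. Ifitm6 had a TATA box at -46, S100a9 a GATA site at -30 and Ifitm3 an AP-1 site at -105. Over the whole sets these motifs were not frequent. Of the 96 genes that lay higher, 75 had a promoter in the table, and 26.7% of those held a PU.1 core, against 21.3% of the 108 promoters of genes that lay lower and 23.1% of all 27025 promoters. A TATA box was in 16% of the first set, 5.56% of the second and 13% of all promoters, an AP-1 site in 5.33%, 0% and 6.87%, and a GATA site in 13.3%, 10.2% and 10.3%. The E-box CACGTG was in 2.67%, 12% and 6.05%, and the E2F core TTCCCGC in 4%, 3.7% and 3.84%. A match is only a run of letters in this window and was not tested as a binding site.

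Further granulocyte genes lay higher in both models without passing the test. Stfa2l1, a stefin-type inhibitor of cysteine proteases, was at 0.432 and 0.369 RPKM in BC primaries, against 19.6 and 66.9 in BC metastases, and at 58.8 RPKM and listed at 0 in PDAC primaries against 207, 1068 and 572 in PDAC metastases. Its joint difference was 5.44 ± 1.04 (limma adjusted p = 0.267), and it has near-identical gene copies between which reads can be split. Chil1, listed as Chi3l1 and encoding a chitinase-like secreted glycoprotein, was at 0.234 and 0.177 RPKM in BC primaries, against 13.3 and 30.8 in BC metastases. Its PDAC values were 17.6 and 0.0228 RPKM in primaries and 37.2, 291 and 160 RPKM in metastases (4.50 ± 0.97; adjusted p = 0.42). G0s2, an inhibitor of triglyceride breakdown that granulocytes also express, was at 3.74 and 0.326 RPKM in BC primaries, against 76.2 and 22.2 in BC metastases. In PDAC primaries 1 and 5 it was at 238 and 0.19 RPKM, and in the metastases at 1696, 4218 and 2663 RPKM (5.84 ± 1.25; adjusted p = 0.42). With the 3 libraries of fewest genes left out, the differences were 3.43 for Stfa2l1, 3.04 for Chi3l1 and 4.21 for G0s2. For all these genes PDAC primary 5 had the lowest PDAC value and PDAC primary 1 stood between it and the metastases.

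Of the 20 neutrophil genes, 19 passed the filter on low values, 16 had a positive difference in both models and none a negative one in both. Over all genes tested, 16.4% were positive in both and 31.1% negative in both. Their median difference was 1.87 in BC and 4.40 in PDAC, beside -0.29 and -0.02 for all genes tested, and it stayed positive in both models in each scaling and without the 3 libraries with the fewest genes (3.05 and 3.24). No member passed the adjusted test in either direction, and 10 were higher at an unadjusted p under 0.05, beside 2.19% of all genes tested. The members did not behave alike in single libraries. Ngp and Camp, granule proteins of maturing neutrophils, were at 25527 and 20982 RPKM in PDAC liver metastasis 5 but at 26.2 and 3.85 in liver metastasis 1 and at 267 and 1.43 in the PDAC lung metastasis. Elane and Mpo, enzymes of the granules that form in neutrophil progenitors, were at 1381 and 268 RPKM in that liver metastasis 5 and at most 23.5 and 1.8 RPKM in any other library. S100a8, S100a9 and Retnlg lay above the primaries of their model in all 5 metastases, while Elane and Mpo were high in 1. Other members of the list did not follow S100a8: Ly6g was listed at 0 in BC lung metastasis 6 and PDAC lung metastasis 1. Cd177 was listed at 0 in BC lung metastasis 6. Of the tested members, 1 was positive in BC and negative in PDAC, and 2 were the reverse. Ngp and the other genes of this paragraph beyond the list's most abundant members were chosen after their values were seen.

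**Figure D3:**
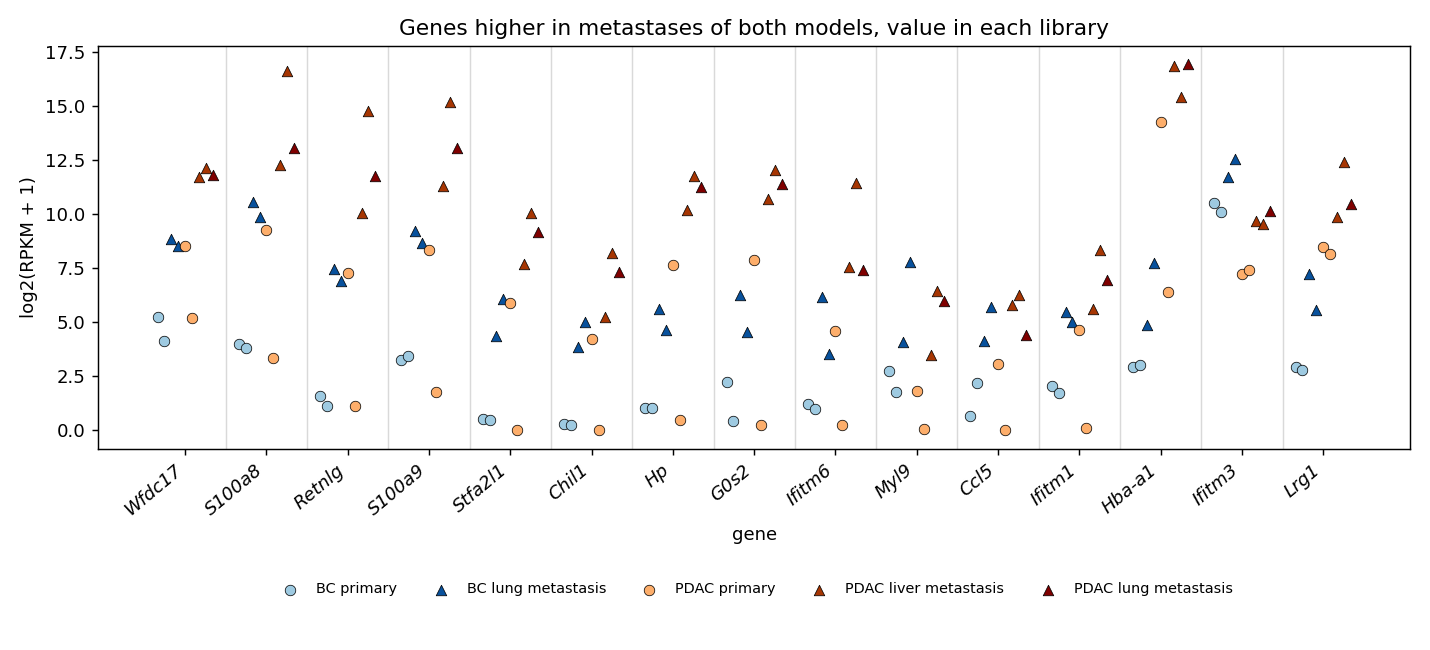
Log2(RPKM + 1) of 15 genes that lay higher in metastases of both models (y axis) in each of the 9 libraries, with circles for primaries and triangles for metastases. Within each gene and model all triangles lie above all circles, and PDAC primary 5 is near 0 for genes such as Stfa2l1 and Ccl5.

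Among the acute-phase genes, 5 of 11 tested lay higher in both models without overlap, beside 0.748% of all genes tested, and none passed the adjusted test. Lrg1, a leucine-rich secreted glycoprotein of inflammation, was at 6.50 and 5.89 RPKM in BC primaries, against 150 and 47.2 in BC metastases. PDAC primaries had 354 and 282 RPKM and PDAC metastases 944, 5474 and 1431 RPKM, with a joint difference of 3.05 ± 0.56 (limma adjusted p = 0.215). Unlike the alarmins, it was at like levels in both PDAC primaries. Saa3, a serum amyloid A protein made outside the liver, was at 9.10 and 8.33 RPKM in BC primaries, against 102 and 57.8 in BC metastases, 529 and 326 in PDAC primaries and 2440, 1845 and 658 in PDAC metastases (2.34 ± 0.49; adjusted p = 0.42). Hp, the haemoglobin-binding protein haptoglobin, was at 1.02 and 1.05 RPKM in BC primaries, against 47.6 and 23.9 in BC metastases. The PDAC values stood at 197 and 0.38 RPKM in primaries and 1181, 3505 and 2479 RPKM in metastases (5.70 ± 1.15; adjusted p = 0.347). Hp passed in 2 of 21 alternatives, each with a PDAC primary left out, and its limma adjusted p was up to 0.93 in the others. Leaving out the 3 libraries with the fewest genes, the differences were 3.54 for Lrg1, 2.70 for Saa3 and 3.97 for Hp. Of the 12 acute-phase genes 11 were tested, 8 were positive in both models and 2 negative in both (16.4% and 31.1% of all genes tested). The 5 that lay higher without overlap were Hp, Lrg1, Saa3, Saa2 and Itih4. The list's median was 2.20 in BC and 2.62 in PDAC and stayed positive in each scaling and without the 3 libraries with the fewest genes (1.65 and 3.47). No member passed the adjusted test in limma (7 higher at an unadjusted p under 0.05, beside 2.19% of all genes tested). Haptoglobin and Lrg1 are also made by hepatocytes, whose 21 marker genes summed to 333 and 455 RPKM in PDAC primaries, 2467 and 4328 in liver metastases and 198 in the lung metastasis. In BC the hepatocyte genes summed to at most 5.35 RPKM in any library. The part of these levels in the result was not tested.

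The interferon-induced transmembrane proteins, which restrict virus entry at cell membranes, lay higher in both models. Ifitm3 was at 1454 and 1086 RPKM in the BC primary tumours, against 3388 and 6016 in lung metastases 4 and 6. Its PDAC values were 152 and 173 RPKM in primaries 1 and 5, against 820, 745 and 1134 in liver metastases 1 and 5 and the lung metastasis. Its primaries differed little within a model, so its spread was small, and the joint difference was 2.17 ± 0.32 (limma adjusted p = 0.051), with 1.84 ± 0.46 in BC and 2.44 ± 0.42 in PDAC. It was 1.89 without the 3 libraries with the fewest genes (adjusted p = 0.9998). Ifitm2 was at 784 and 453 RPKM in BC primaries, against 927 and 1933 in BC metastases, 413 and 1430 in PDAC primaries and 1915, 3618 and 3301 in PDAC metastases (1.56 ± 0.43; adjusted p = 0.853). Ifitm1 was at 3.20 and 2.29 RPKM in BC primaries, against 43.1 and 31.7 in BC metastases, 24.3 and 0.0875 in PDAC primaries and 47.6, 321 and 122 in PDAC metastases (4.02 ± 0.94; adjusted p = 0.608). Ifitm6, a member found in myeloid cells, had 1.30 and 1.00 RPKM in BC primaries, against 70.8 and 10.5 in BC metastases, 23.4 and 0.177 in PDAC primaries and 188, 2820 and 171 in PDAC metastases (5.19 ± 1.12; adjusted p = 0.42). Without the 3 libraries with the fewest genes the differences were 1.65 for Ifitm2, 2.94 for Ifitm1 and 4.99 for Ifitm6. The Ifitm genes are close copies of each other, and reads may be split between them.

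The interferon-stimulated genes as a list were mixed in direction. Of 27 such genes 26 were tested, 8 were positive in both models and 7 negative in both (16.4% and 31.1% of all genes tested). The median was 0.33 in BC and 0.08 in PDAC, both below 0 at an equal library sum. When the 3 libraries with the fewest genes were left out, 10 were positive in both and none negative in both, with medians of 1.22 and -0.11. The 5 members that lay higher without overlap, as did 0.748% of all genes tested, were Isg15, Irf7, Ifitm1, Ifitm2 and Ifitm3. Isg15, a ubiquitin-like modifier, was at 29.0 and 43.9 RPKM in BC primaries, against 124 and 69.1 in BC metastases, 19.8 and listed at 0 in PDAC primaries and 31.0, 110 and 125 in PDAC metastases (2.83 ± 0.92; limma adjusted p = 0.853). Irf7, a transcription factor of the interferon response, was at 18.2 and 14.5 RPKM in BC primaries, against 52.2 and 32.6 in BC metastases, 11.0 and listed at 0 in PDAC primaries and 22.2, 32.7 and 25.97 in PDAC metastases (2.22 ± 0.84; adjusted p = 0.853). With the 3 libraries of fewest genes left out, the joint differences were 1.64 for Isg15 and 1.42 for Irf7. No member of the list passed the adjusted test (6 higher and none lower at an unadjusted p under 0.05, beside 2.19% and 2.7% of all genes tested). Isg15 and Irf7 were chosen after their values were seen.

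Some chemokine ligands lay higher in both models without overlap, as did 0.748% of all genes tested. Ccl5, which draws T cells and monocytes, was at 0.596 and 3.59 RPKM in BC primaries, against 16.3 and 51.3 in BC metastases. PDAC primary 1 had 7.33 RPKM, primary 5 was listed at 0, and the PDAC metastases had 54.8, 75.3 and 20.1 RPKM (3.74 ± 0.89; limma adjusted p = 0.61). Ccl3, Ccl4 and Cxcl10 were the others, with BC differences of 1.19, 1.58 and 1.81 and PDAC differences of 4.81, 5.64 and 3.89. Leaving out the 3 libraries with the fewest genes, the joint differences were 2.82 for Ccl5, 0.88 for Ccl3, 1.94 for Ccl4 and 2.10 for Cxcl10, against 3.17, 3.80 and 2.95 with them for the last 3. Of the 20 chemokine genes tested, 7 were positive in both models and 5 negative in both (16.4% and 31.1% of all genes tested). The medians were -0.35 in BC and 0.96 in PDAC (0.12 and 0.13 without those 3 libraries, and 0.09 in BC after quantile scaling). No member passed the adjusted test (5 higher and 1 lower at an unadjusted p under 0.05, beside 2.19% and 2.7% of all genes tested). Ccl3, Ccl4 and Cxcl10 were chosen after their values were seen.

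Gpx1 and Ftl1 lay higher in metastases of both models by less than the alarmins. Gpx1, glutathione peroxidase, was at 1196 and 1096 RPKM in BC primaries, against 1796 and 3309 in BC metastases, 1753 and 1369 in PDAC primaries and 5490, 9856 and 6612 in PDAC metastases (1.69 ± 0.33; limma adjusted p = 0.274). Ftl1, the light chain of ferritin, was at 4245 and 1503 RPKM in BC primaries, against 4399 and 6835 in BC metastases, 6581 and 5461 in PDAC primaries and 16417, 10107 and 13363 in PDAC metastases (1.12 ± 0.32; adjusted p = 0.853). As deposited, Ftl1 had the same difference in both models, 1.12 in each. Its joint difference was not stable, running from 0.11 to 1.39 over the 21 alternatives of processing. That of Gpx1 ran from 0.70 to 1.96. Fth1, the heavy chain of ferritin, was at 8593 and 3813 RPKM in BC primaries, against 14060 and 18834 in BC metastases, 10978 and 7251 in PDAC primaries and 13494, 13187 and 24894 in PDAC metastases (1.17 ± 0.31; adjusted p = 0.853). Its groups did not overlap in either model, but its PDAC difference of 0.88 was under 1, and its joint difference changed sign after quantile scaling (-0.38). Of the 22 genes of the NRF2 and glutathione list, 6 were positive in both models and 6 negative in both (12 and 3 without the 3 libraries with the fewest genes). The shares of all genes tested were 16.4% and 31.1%. Gpx1 and Ftl1 were the 2 members that lay higher without overlap by at least 1 log2 unit in each, beside 0.748% of all genes tested. No member passed (4 higher at an unadjusted p under 0.05, beside 2.19% of all genes tested). Fcer1g, a signalling chain of myeloid Fc receptors, was at 32.5 and 46.7 RPKM in BC primaries, against 100 and 102 in BC metastases, 392 and 173 in PDAC primaries and 1202, 2308 and 1472 in PDAC metastases (2.04 ± 0.43; adjusted p = 0.42). Without the 3 libraries with the fewest genes the differences were 1.36 for Gpx1, 0.88 for Ftl1, 0.79 for Fth1 and 1.71 for Fcer1g.

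Tmsb4x, which binds actin monomers, was at 511 and 700 RPKM in BC primaries, against 1397 and 2209 in BC metastases, 5919 and 3302 in PDAC primaries and 7655, 10930 and 9910 in PDAC metastases (1.30 ± 0.29; limma adjusted p = 0.548). Lgals3, the gene of galectin-3, was at 350 and 147 RPKM in BC primaries, against 695 and 850 in BC metastases, 605 and 435 in PDAC primaries and 1240, 1051 and 1234 in PDAC metastases (1.45 ± 0.35; adjusted p = 0.67). Both were chosen after their values were seen, and both kept clear of 0 in every library, unlike most of the granulocyte genes. Myl9, a myosin light chain of smooth muscle and other contractile cells, was at 5.63 and 2.40 RPKM in BC primaries, against 16.0 and 217 in BC metastases, 2.54 and 0.0275 in PDAC primaries and 10.1, 85.1 and 61.8 in PDAC metastases (4.05 ± 0.97; adjusted p = 0.631). BC lung metastasis 6 had the highest value and PDAC primary 5 the lowest. With the 3 libraries of fewest genes left out, the differences were 0.93 for Tmsb4x, 1.26 for Lgals3 and 2.48 for Myl9. Over the 21 alternatives the joint difference ran from 0.54 to 1.53 for Tmsb4x and from 0.75 to 1.61 for Lgals3.

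Haemoglobin genes lay higher in metastases of both models, at very different levels. Hba-a1, an alpha chain, was at 6.55 and 7.198 RPKM in BC primaries, against 28.2 and 211 in BC metastases. PDAC libraries gave 19917 and 82.6 RPKM in primaries 1 and 5, against 118269, 43446 and 126153 in liver metastases 1 and 5 and the lung metastasis (4.82 ± 1.23; limma adjusted p = 0.853). Leaving out the 3 libraries with the fewest genes, the difference was 1.87. Hba-a2, Hbb-b1 and Hbb-b2 were the other 3 of the 12 tested erythroid and platelet genes that lay higher without overlap, beside 0.748% of all genes tested. The list had 7 members positive in both models and none negative in both (16.4% and 31.1% of all genes tested). Its median was 0.20 in BC and 5.00 in PDAC (0.75 and 2.34 without those 3 libraries). The haemoglobin copies are near-identical. Haemoglobin made up 0.00608 to 0.107% of the summed RPKM in BC libraries, 0.0582 and 10.9% in PDAC primaries and 20.05 to 38.9% in PDAC metastases.

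The other genes of the 96 had joint differences down to 1.03 and adjusted p up to 0.853. The median difference of the 96 was 1.64 in BC and 3.19 in PDAC, which the rule that chose them fixes in sign. In PDAC primary 5, 51 of them (53.1%) were under 1 RPKM, so their PDAC difference rests in part on a library in which 52.5% of all tested genes were under 1 RPKM. By list, 30 of the 96 were members of any gene list and 12 of a cell type list.

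The 139 genes that lay lower in both models had smaller differences, and none passed the test. All had a limma adjusted p of 0.853 in the joint fit, and 105 had an unadjusted p under 0.05. In BC lung metastasis 6 or PDAC lung metastasis 1, 128 of them (92.1%) were under 1 RPKM, and 90 (64.7%) in both, against 4149 (32.3%) of all genes tested. These are among the 3 libraries with the fewest genes above 0, and their low values of a gene cannot be told apart from genes missed. No value at 0 is called absence here.

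Calu, a calcium-binding protein of the secretory pathway, was at 59.9 and 82.4 RPKM in the BC primary tumours, against 24.0 and 0.606 in lung metastases 4 and 6. Its PDAC values were 12.8 and 65.1 RPKM in primaries, against 7.90, 2.93 and 1.04 in liver metastases 1 and 5 and the lung metastasis. Its joint difference of -3.15 ± 0.95 (limma adjusted p = 0.853) was -1.37 without the 3 libraries with the fewest genes. Mmp14, a membrane-bound metalloproteinase, was at 211 and 215 RPKM in BC primaries, against 112 and 19.6 in BC metastases, 8.93 and 172 in PDAC primaries and 4.70, 2.98 and 0.0904 in PDAC metastases (-3.06 ± 0.94). Bmp1, which trims procollagens, was at 127 and 163 RPKM in BC primaries, against 42.1 and 18.8 in BC metastases, 1.84 and 65.2 in PDAC primaries and 1.74, 0.648 and 0.0377 in PDAC metastases (-2.71 ± 0.94). Ltbp3, which holds latent TGF-beta in the matrix, was at 39.7 and 110 RPKM in BC primaries, against 24.6 and 4.57 in BC metastases, 5.79 and 35.1 in PDAC primaries and 3.93, 0.941 and 0.0452 in PDAC metastases (-2.70 ± 0.89). For Mmp14, Bmp1 and Ltbp3 PDAC primary 5 was far above PDAC primary 1, which lay just above the metastases. Without the 3 libraries with the fewest genes the differences were -0.99, -1.08 and -1.27 (adjusted p = 0.9998 for each).

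Lamb3, a chain of the laminin that anchors epithelium to its basement membrane, was at 9.48 and 5.36 RPKM in BC primaries, at 1.58 RPKM and listed at 0 in BC metastases, at 0.657 and 79.8 RPKM in PDAC primaries and at 0.225, 0.498 and 0.0179 RPKM in PDAC metastases (-2.83 ± 0.99; limma adjusted p = 0.853). The difference was -0.98 without the 3 libraries with the fewest genes. Lamb3 was the only member of the basement membrane, laminin and integrin list that lay lower without overlap. Of the 20 genes of that list 17 were tested, 15 were negative in both models and none positive in both, with medians of -1.16 in BC and -0.87 in PDAC. Over all genes tested 31.1% were negative in both. Itgb1, the beta chain of many integrins, was at 194 and 161 RPKM in BC primaries, against 61.9 and 30.6 in BC metastases, with PDAC groups that overlapped (-1.13 ± 0.60; -0.50 without those 3 libraries). No member passed the adjusted test (3 lower at an unadjusted p under 0.05, beside 2.7% of all genes tested). The medians stayed negative in each scaling, and when the 3 libraries with the fewest genes were left out, 7 of 16 members were negative in both, with a PDAC median of 0.07.

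Pkp3, a plaque protein of desmosomes, was at 31.8 and 29.8 RPKM in BC primaries, against 21.3 and 0.00592 in BC metastases, 53.3 and 90.0 in PDAC primaries and listed at 0, 9.78 and 32.1 in PDAC metastases (-3.05 ± 1.13; limma adjusted p = 0.853). Thumpd1, an adaptor for RNA acetylation, was at 26.6 and 23.6 RPKM in BC primaries, against 16.5 and 0.00807 in BC metastases, 15.9 and 34.8 in PDAC primaries and 0.0218, 4.93 and 0.059 in PDAC metastases (-3.23 ± 0.99). The RNA helicase gene Ddx27 (-2.88 ± 0.91), the RNA-binding protein gene Rbm15b (-2.43 ± 0.94) and the nuclear anchoring protein gene Akap8 (-2.98 ± 1.01) had the same shape, with values at or near 0 in BC lung metastasis 6 and the PDAC lung metastasis. Axin1, a scaffold that restrains WNT signalling, had -2.53 ± 0.98, the clathrin adaptor gene Ap2a1 had -2.48 ± 0.95 and the kinase gene Map4k3 had -2.44 ± 0.80. With the 3 libraries of fewest genes left out, all 8 differences were smaller, at -2.28 for Pkp3, -1.68 for Thumpd1, -1.43 for Ddx27, -1.30 for Rbm15b, -1.66 for Akap8, -0.95 for Axin1, -0.77 for Ap2a1 and -1.14 for Map4k3. In BC lung metastasis 4, which listed 18665 genes above 0, the values of these genes were nearer to the primaries: 16.5 RPKM for Thumpd1, 9.27 for Ddx27, 19.4 for Rbm15b and 12.7 for Axin1.

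**Figure D4:**
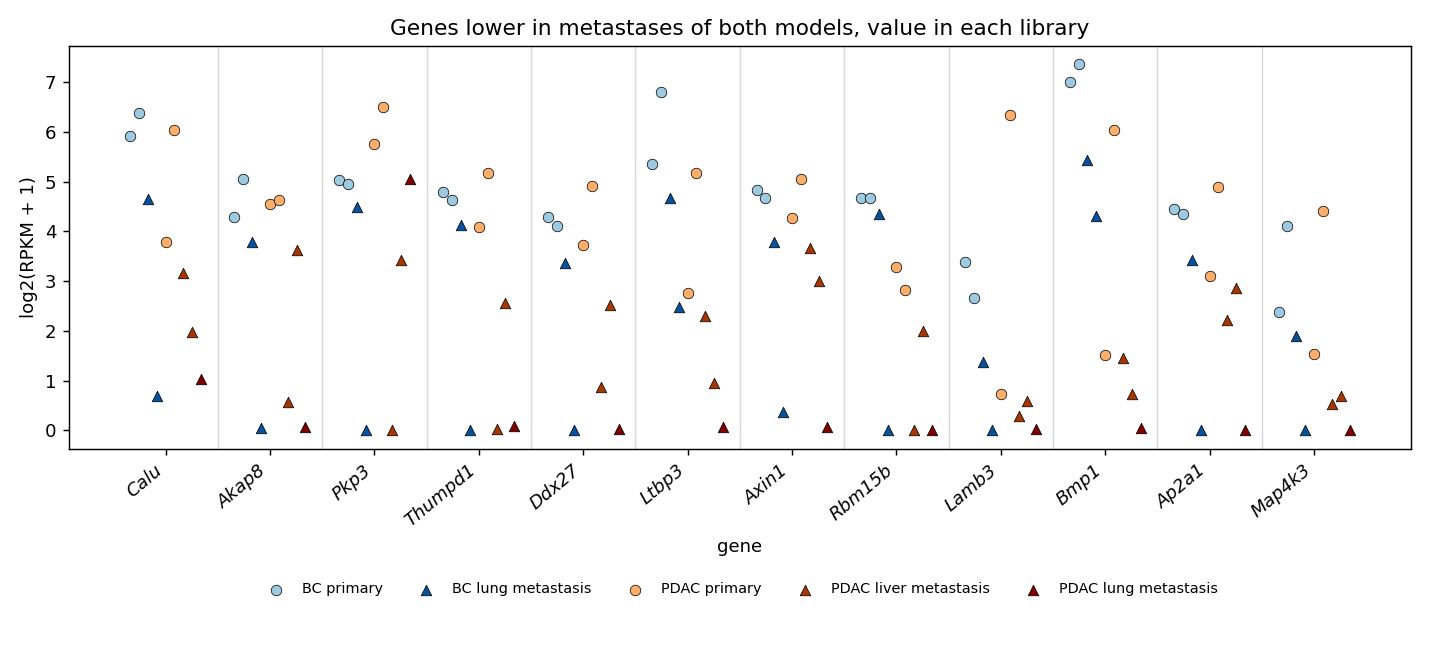
Log2(RPKM + 1) of the 12 named genes that lay lower in metastases of both models (y axis) in each of the 9 libraries, with circles for primaries and triangles for metastases. BC lung metastasis 6 and the PDAC lung metastasis lie at or near 0 for most of these genes, with exceptions such as Bmp1 in the first (18.8 RPKM) and Pkp3 in the second (32.1 RPKM).

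Only 9 of the 139 genes (6.47%) were at 1 RPKM or more in every library: Trim35, Paics, 2310022B05Rik, Ctnnb1, Dync1li2, Wdr43, Eftud2, Sec31a and Dhx15, a set chosen after its values were seen. Trim35, a ubiquitin ligase, was at 36.6 RPKM in each BC primary, 28.4 and 3.57 in BC metastases, 51.8 and 41.2 in PDAC primaries and 13.1, 10.7 and 1.47 in PDAC metastases (-2.23 ± 0.82; limma adjusted p = 0.853). Ctnnb1, the gene of beta-catenin, was at 40.5 and 113 RPKM in BC primaries, against 32.7 and 20.8 in BC metastases, 17.9 and 30.5 in PDAC primaries and 17.0, 7.48 and 6.02 in PDAC metastases (-1.29 ± 0.65). Wdr43, a factor of ribosome assembly, was at 40.7 and 41.7 RPKM in BC primaries, against 24.4 and 16.0 in BC metastases, 30.2 and 23.7 in PDAC primaries and 16.9, 7.99 and 9.35 in PDAC metastases (-1.13 ± 0.62). For these 3 genes every metastasis lay below the primaries of its model while no library was under 1 RPKM. Trim35 was still low, at 3.57 and 1.47 RPKM, in BC lung metastasis 6 and the PDAC lung metastasis, which list few genes above 0. Leaving out the 3 libraries with the fewest genes, the differences of Trim35, Ctnnb1 and Wdr43 were -1.20, -0.82 and -1.02.

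Among the 32 gene lists no member passed the adjusted joint test in either direction, since Wfdc17 is in none of them. The neutrophil and acute-phase lists were those whose medians were above 1.5 in both models apart from the 7 tested lung epithelial genes (1.94 in BC and 1.93 in PDAC, or 1.71 and 0.29 over 4 genes without the 3 libraries low in genes above 0), of which Sftpc, a surfactant protein, reached 34207 RPKM in the PDAC lung metastasis, 20.6 RPKM in BC lung metastasis 4 and at most 1.95 RPKM elsewhere. For the counts that follow, the shares of all genes tested were 16.4% positive in both models and 31.1% negative in both. MHC class II genes had a median of 2.88 in BC and 0.53 in PDAC, with 7 of 9 positive in both, and the PDAC median was -0.22 at an equal library sum. When the 3 libraries with the fewest genes were left out, the PDAC median was -2.82 and 0 of 9 were positive in both. H2-Ab1, a class II chain, was at 58.0 and 114 RPKM in BC primaries, against 777 and 857 in BC metastases, and at 9500 and 243 RPKM in PDAC primaries and 1796, 1277 and 4834 in PDAC metastases. Epithelial genes had a median of -0.32 in BC and -2.61 in PDAC, none positive in both models and 9 of 16 negative in both, but without the 3 libraries with the fewest genes the PDAC median was 0.54. Pancreatic ductal and gastric-type genes had 9 of 11 negative in both, with medians of -0.02 and -2.67 (0.20 in BC after quantile scaling). When the same 3 libraries were left out, 3 of 8 were negative in both and the PDAC median was -0.06.

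Other lists were split between the models. Of all 12832 genes tested, 4053 were negative in BC and positive in PDAC, and 2438 were positive in BC and negative in PDAC. Of 30 proliferation genes, 17 were negative in BC and positive in PDAC, with medians of -1.12 and 1.34. Of 19 immediate early genes 14 were of this kind, with medians of -0.74 and 1.57, and of 24 macrophage and monocyte genes 15 were, with -0.54 and 2.56 (0.08 and 1.52 without the 3 libraries low in genes above 0). Of 35 cytosolic ribosomal protein genes, 32 were positive in BC and negative in PDAC, with medians of 0.61 and -0.57. Of 30 oxidative phosphorylation genes 16 were, with 0.99 and -0.06, and of 16 cholesterol synthesis genes 11 were negative in BC and positive in PDAC, with -1.48 and 0.48 (-0.16 in PDAC at an equal library sum). For the proliferation, immediate early, ribosomal and oxidative phosphorylation lists both medians kept these signs in each scaling. When the 3 libraries with the fewest genes were left out, the oxidative phosphorylation medians were 0.54 and 0.33, with 18 of 30 genes positive in both, and the ribosomal medians were 0.06 and -0.27, with 5 positive and 14 negative in both. The proliferation medians were then -0.48 and 1.26, the immediate early medians -0.33 and 1.20 and the cholesterol synthesis medians -0.67 and 0.10.

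**Figure D5:**
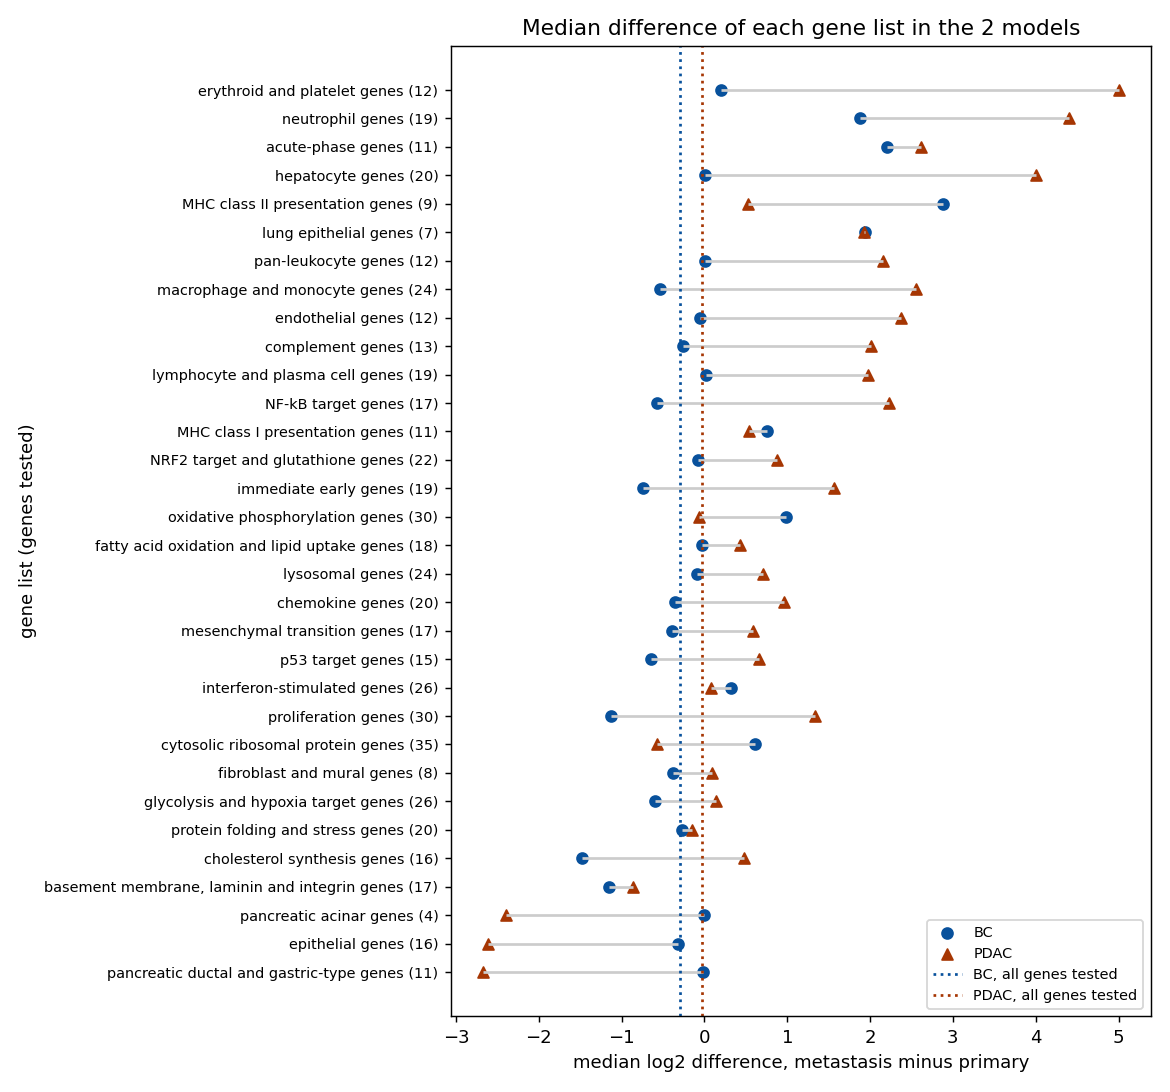
Median log2 difference of each of the 32 gene lists in BC (circles) and PDAC (triangles) on the x axis, with the number of tested genes in brackets and dotted lines at the medians of all genes tested (-0.29 in BC and -0.02 in PDAC). Neutrophil and acute-phase genes lie to the right in both models, basement membrane genes to the left in both, and proliferation, immediate early and cholesterol synthesis genes on either side of 0.

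Whether the effect of site differed between BC and PDAC was tested in the same fit. No gene passed with the PDAC effect above or below the BC effect (0% each; smallest limma adjusted p = 0.877), and at an unadjusted p under 0.05 there were 297 above (2.31%) and 142 below (1.11%). Genes without overlap in either model that went opposite ways numbered 184 with BC higher and PDAC lower (1.43%) and 222 with BC lower and PDAC higher (1.73%). These counts carry no demand on size and compare with 207 higher and 267 lower in both models when the demand of 1 log2 unit is dropped. Genes that lay apart the same way were thus not much more numerous than those that lay apart opposite ways. For Wfdc17 the difference between the models was 1.03 ± 1.17 and for Ifitm3 it was 0.60 ± 0.62 (adjusted p = 0.878 for each), which does not show that the effects were equal.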

How the data were processed

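Gene expression was measured by RNA-seq in 9 libraries of sorted cells. Per the labels' protocols, RNA was isolated with a micro-scale kit and libraries were made with SMART-seq v4 and Nextera XT, which mark no strand. Genome build mm9 is named in the submitters' processing notes, and the aligner and counter are not given in the sources used here. What the authors deposited was 1 table, named CPM, whose columns sum to 288200 to 992100. Low values (under 20 reads) times gene length were whole multiples of 1 step per library, within 0.02, for 62.5 to 74.2% of values, against 3.1 to 9.4% without length, so the deposited values were read as RPKM. The total reads implied by that step were fewer than the estimated reads on genes in most libraries, so the total used for scaling is uncertain.

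Tests used limma 3.58.1 (R 4.3.3, statmod 1.5.0) on log2(RPKM + 1), which understates changes of low genes, with trend and robust moderation, two-sided, Benjamini-Hochberg over 12832 genes. The joint fit had site and model as terms (6 residual degrees of freedom); the per-model fit had 1 mean per model and site (5), with PDAC liver and lung metastases as 1 group of 3. The joint test assumes that liver and lung metastases vary alike. SE is limma's moderated standard error.

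Genes were named by rule: those called, per direction the 12 with the largest smaller per-model difference among genes without overlap (at least 1 log2 in each model, higher group averaging at least 5 RPKM), the 3 most abundant members of each list, and 4 per opposite pattern. Others are marked as chosen after their values were seen. Mmp14, Fcer1g, Hbb-b2, Saa2 and Itih4, and the genes named only as markers listed at 0, were also chosen after their values were seen. The members, the lists and the rules were chosen with earlier results of these data known. Of 602 genes in 32 lists, 598 were in the table, 10 matched by Ensembl ID.

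Submitters call metastases matched, and PDAC libraries of 1 number share time and genotype, so these numbers were taken as 1 mouse each. Over 12832 genes the deviations of PDAC primary 1 and liver metastasis 1 from their group means correlated at -0.165. BC groups share no number.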

Additional observations from a re-analysis of the deposited data

Results flagged for a closer look

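In 184 genes every metastasis library lay higher in BC and lower in PDAC, and in 222 the reverse. From each pattern the 4 genes with the smallest p for the difference between the models are given. Their higher group averaged at least 5 RPKM in each model. The difference itself was tested with limma and none passed (adjusted p = 0.8767 for each). Nfkbiz, a nuclear regulator of NF-kB targets, was at 26.2 and 25.8 RPKM in BC primaries against 11.1 and 5.78 in BC metastases, and at 14.6 and 6.43 in PDAC primaries against 39.7, 134 and 208 in PDAC metastases, a PDAC effect minus BC effect of 4.861 log2. Gadd45a, a stress-induced gene of growth arrest, was at 120 and 151 RPKM against 69.3 and 80.1 in BC and at 50.2 and 17.9 against 139, 382 and 343 in PDAC, a difference of 3.931. Both genes lay lower in BC metastases and higher in PDAC metastases. Pla2g7, a secreted phospholipase of macrophages, had a difference of 5.33 and Zswim4 of 5.143 in the same direction.

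Igtp, an interferon-induced GTPase, went the other way, with 38.0 and 32.2 RPKM in BC primaries against 159 and 79.0 in BC metastases and 29.6 and 56.8 in PDAC primaries against 8.87, 7.25 and 0.0387 in PDAC metastases, a difference of -4.911. Wdr55 had a difference of -5.183, with 2 of 3 PDAC metastases listed at 0. Its BC values were close, at 18.0 and 13.9 RPKM in primaries against 18.5 and 26.7 in metastases (BC log2 difference 0.47). Eci1, an enzyme of fatty acid oxidation, had -4.613, and Elof1, a transcription elongation factor gene, had -3.295. The 4 genes lay higher in BC metastases, Wdr55 by little, and lower in PDAC metastases.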

How the results depend on the processing

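Wfdc17 was the 1 gene called over both models. The number of genes called higher was 0 at a pseudocount of 0.1, with no filter on low values, at an equal library sum with or without haemoglobin, with the replicate block, without the 3 libraries with the fewest genes, without trend and robust moderation and as the mean of the per-model contrasts. It was 3 at a minimum of 5 RPKM, 6 after quantile scaling and 2 with array weights, which also called 2 genes higher in BC. The crossed pairing with a replicate block, chosen after seeing the data, called 9. Genes without overlap in both models numbered 96 higher and 139 lower. The higher count was 40 at an equal library sum, 53 without haemoglobin, 145 without the 3 libraries with the fewest genes, 30 at 2 log2 units and 207 at any size. The lower count was 39 at a pseudocount of 5, 590 at an equal library sum, 403 without haemoglobin, 81 after quantile scaling, 76 without those 3 libraries, 22 at 2 log2 units and 267 at any size. With 1 library left out in turn, joint calls ran from 0 to 10 higher and 0 to 0 lower, PDAC calls from 0 to 438 higher and 0 to 210 lower, BC calls from 0 to 0 in each direction, and the difference between models from 0 to 17 above and 0 to 0 below. The larger-p calls ran from 0 to 0, and genes without overlap from 85 to 222 higher and 40 to 469 lower. The highest counts came without PDAC primary 1, with 10 joint calls, S100a8, S100a9, Retnlg and Hp among them, and 222 and 469 genes without overlap. Without PDAC primary 5 the joint fit called S100a9, Hp and Wfdc17, and 409 genes lay lower. The lower count also moved without BC lung metastasis 4 (327) or 6 (40), PDAC liver metastasis 1 (248) or 5 (296), and was 207 without BC primary 1. A group left with 1 library was assumed to vary like the others. Smaller groups also lie apart more easily, so counts without overlap after a library is left out do not compare directly with 96 and 139. Of 1189 values of named genes under an alternative, 1 changed sign (Fth1 after quantile scaling, -0.3787), 1155 kept their direction and side of the threshold, 19 came to pass and 14 no longer did. The cause of these changes was not tested. Libraries with few genes above 0 limit what low values show.

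The replicate block, with the PDAC numbers as pairs, left 95 higher and 138 lower genes without overlap and gave Wfdc17 an adjusted p of 0.0877. It changed no other call.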

Other observations

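The lymphocyte and plasma cell genes differed widely between the PDAC primaries. Their 20 genes summed to 35111 RPKM in PDAC primary 1 and to 45.5 RPKM in PDAC primary 5, and the PDAC metastases lay between, at 6561, 11784 and 3956 RPKM. BC primaries summed to 11.96 and 28.0 RPKM and BC metastases to 84.2 and 45.3 RPKM. Of the 19 tested members, 10 were positive in both models and 4 negative in both, beside 16.4% and 31.1% of all genes tested. The 12 pan-leukocyte genes summed to 3686 and 145 RPKM in PDAC primaries and to 1486, 6711 and 2944 RPKM in PDAC metastases, so the groups overlapped.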
